A study of Mus musculus with 6 samples.

Results

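The T-box genes examined here are Tbx1, Tbx2, Tbx3, Tbx5, Tbx18 and Tbx20, chosen by gene symbol as the T-box factors with known roles in the heart. All 6 were present among the 24062 gene symbols of the count table, and 5 passed the filter on low counts that left 13629 genes for testing. Tbx1 did not pass. RNA-seq was performed on the left and right ventricles of male mice aged 1 day, of the inbred strain C57/Bl6N. The 3 control libraries (CTL) came from mice without Cre recombinase. The 3 Med12cKO libraries came from Cre-positive mice in which Med12, encoding a part of Mediator that works with its kinase CDK8, was knocked out in the heart. The driver of Cre, the floxed allele of the controls and the number of animals per library are not given in the sources used here. Cre and the loss of Med12 came together, so their effects cannot be told apart in any comparison below.

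T-box factors bind DNA through a shared domain, the T-box, and several of them recognise the same short element. In the developing heart Tbx5 and Tbx20 act with GATA and NKX2-5 factors to activate genes of the working chamber muscle. Tbx2 and Tbx3 occupy similar elements but repress chamber genes, which keeps the atrioventricular canal and the conduction system distinct. Tbx18 marks the epicardium, the sinus horns and mural cells, and Tbx1 acts earlier in the pharyngeal region and the outflow tract.

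Library totals ran from 8453346 to 10911698 counts, and 3 counts, the limit that a count of 0 allows, corresponded to 0.286 to 0.345 CPM (counts scaled to a fixed library total, with edgeR's TMM factors). These limits cover counting error only. Med12 itself measured 103, 176 and 113 CPM in CTL replicates 1 to 3 and 61.6, 85.0 and 41.3 CPM in Med12cKO replicates 1 to 3. The groups did not overlap, with a log2 fold change of −1.06 (SE 0.30) that passed DESeq2 (adjusted p = 0.025) and not edgeR (adjusted p = 0.765). Ventricular cardiomyocyte markers were abundant in every library, with summed levels of 44724 to 58006 CPM in CTL and 36802 to 47018 CPM in Med12cKO. Other tissues were present as well. The 12 thymus and T-cell markers summed to 804 CPM in CTL replicate 3 and 809.7 CPM in Med12cKO replicate 1, and to between 3.33 and 5.41 CPM in the other 4 libraries. The 8 lung markers summed to 72.6 CPM in CTL replicate 1 and 89.3 CPM in Med12cKO replicate 2, and to between 6.22 and 8.50 CPM elsewhere. These last 2 libraries are also those whose description opens with the letter J, and the other 4 open with I. The labels do not say what the letter stands for. The 11 skeletal muscle markers summed to 176 CPM in Med12cKO replicate 1 and to between 27.1 and 38.0 CPM in the other libraries. Each tissue thus appeared in 1 library of each group, except skeletal muscle.

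Tbx20 and Tbx5 made up most of the T-box signal in the newborn ventricle. Levels of different genes were compared per kilobase of annotated exon. On that scale the order in both groups was Tbx20, Tbx5, Tbx18, Tbx2, Tbx3 and Tbx1. Tbx20 ranged from 33.0 to 49.1 CPM per kilobase over the 6 libraries and Tbx5 from 20.4 to 30.8, so the ranges did not overlap. Together they held 75.8% to 80.2% of the summed level per kilobase of the 6 genes. Tbx18, at 7.09 to 10.6 CPM per kilobase, overlapped with Tbx2 at 5.82 to 7.89. Tbx18 was the higher of this pair in 5 of 6 libraries, the exception being Med12cKO replicate 3. Tbx3 ranged from 2.55 to 3.86 CPM per kilobase and Tbx1 from 0.13 to 0.53. Each neighbouring pair apart from Tbx18 and Tbx2 kept its order in all 6 libraries. The plot of levels by library shows these differences on the CPM scale.

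**Figure D1:**
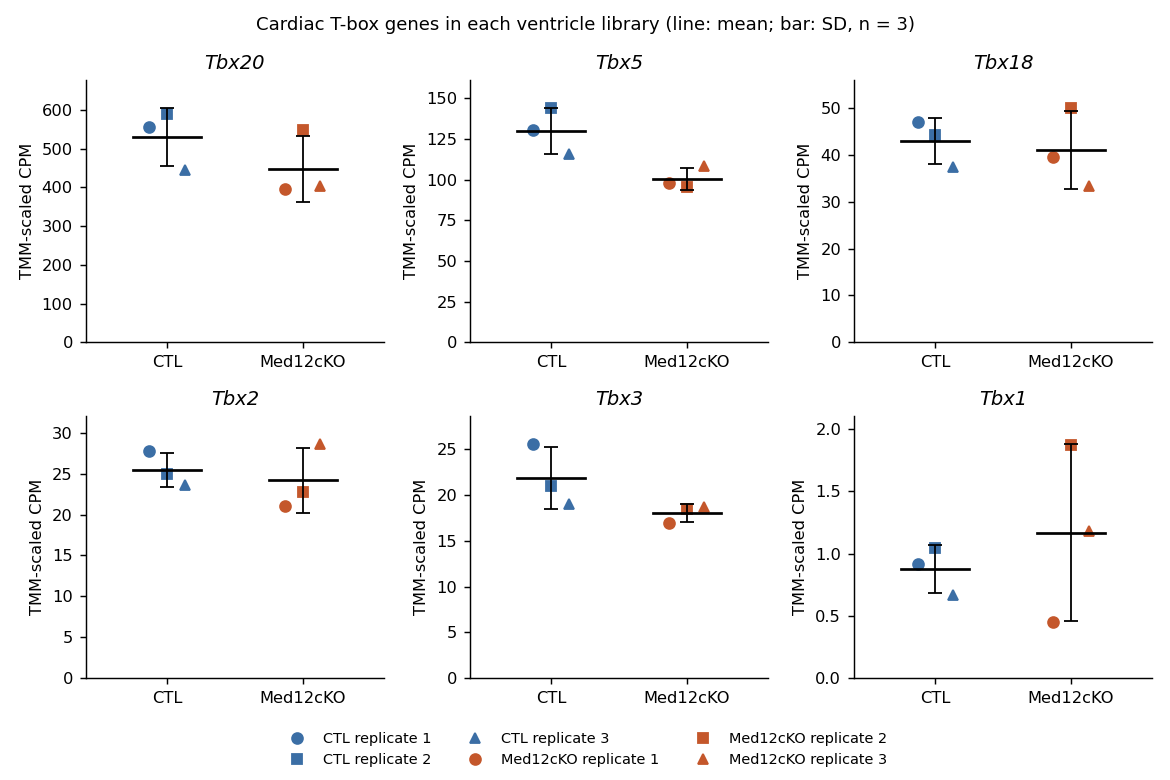
TMM-scaled CPM (y axis, starting at 0 and scaled for each gene) of the 6 T-box genes in the 3 CTL and 3 Med12cKO libraries, with symbols for replicates, a line for the mean and bars for the SD (n = 3). The groups are separated in Tbx5 (115.6 CPM or more against 108 CPM or less) and, by a narrow margin, in Tbx3 (19.0 against 18.7 CPM), and they overlap in the other 4 genes.

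Tbx5 is the activator whose mutation in people causes Holt-Oram syndrome, with septal and conduction defects. It lies on chromosome 5 from 119832668 to 119885219 (GRCm38, plus strand). It measured 131, 144 and 116 CPM in CTL replicates 1 to 3 and 97.9, 95.4 and 108 CPM in Med12cKO replicates 1 to 3. All 3 Med12cKO libraries lay below all 3 controls. The mean was 130.1 ± 14.2 CPM in CTL and 100.6 ± 6.88 CPM in Med12cKO (SD, n = 3 each). The log2 difference was −0.37 (SE 0.12, 95% interval −0.65 to −0.10). After adjustment over all genes it passed neither the quasi-likelihood test of edgeR (adjusted p = 0.884, unadjusted 0.0136) nor DESeq2 (adjusted p = 0.494). An exact permutation of the 6 libraries' log2 CPM gave a two-sided p of 0.10, the smallest that 3 against 3 libraries allow. Without both libraries that held thymus transcripts the log2 fold change was −0.44, and in the 4 libraries with letter I, without lung transcripts, it was −0.32.

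Tbx20, a regulator of myocardial growth and of adult heart muscle function, lies on chromosome 9 from 24718138 to 24774303 (minus strand). Its levels were 555, 589.5 and 446 CPM in CTL replicates 1 to 3 and 395, 547 and 403 CPM in Med12cKO replicates 1 to 3. Med12cKO replicate 2 lay among the controls and the other Med12cKO libraries lay below them. The means were 529.9 ± 75.1 and 448 ± 85.3 CPM (SD, n = 3 each). The log2 fold change of −0.24 (SE 0.17, 95% interval −0.63 to 0.14) did not pass (edgeR adjusted p = 0.9999, exact permutation p = 0.20). Without Med12cKO replicate 2 it was −0.41, and without CTL replicate 2 it was −0.16. Tbx5 stood at 23.5% to 25.9% of the Tbx20 CPM in the controls and at 24.8%, 17.5% and 26.9% in Med12cKO replicates 1 to 3. The ratio of these activators therefore overlapped between groups, with the lowest value in the Med12cKO library that held lung transcripts.

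Tbx2 and Tbx3, the related repressors, did not pass either. Tbx3 lies on chromosome 5 from 119670669 to 119684724 (plus strand), 147.9 kilobases before Tbx5 on the same strand. It measured 25.5, 21.0 and 19.0 CPM in CTL and 16.9, 18.5 and 18.7 CPM in Med12cKO replicates 1 to 3. The groups did not overlap, but the lowest control and the highest Med12cKO library were almost level, and CTL replicate 1 was the highest. The means were 21.8 ± 3.35 and 18.0 ± 0.98 CPM (SD, n = 3 each). The difference of −0.28 on the log2 scale (SE 0.16, 95% interval −0.64 to 0.09) did not pass (edgeR adjusted p = 0.9999, exact permutation p = 0.10). Without CTL replicate 1, a library with lung transcripts, it was −0.15. An antisense transcript shares 1.74% of the exon bases of Tbx3, and strand use in counting is not given in the sources used here. Tbx2 lies on chromosome 11 from 85832551 to 85841948 (plus strand). It measured 27.7, 24.96 and 23.6 CPM in CTL and 21.1, 22.8 and 28.6 CPM in Med12cKO replicates 1 to 3. The groups overlapped, and the highest library of all was Med12cKO replicate 3. The log2 difference was −0.07 (SE 0.16, 95% interval −0.43 to 0.28; edgeR adjusted p = 0.9999). Its sign turned in the 4 libraries with letter I (0.04) and without Med12cKO replicate 1 (0.0035).

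Tbx18 lies on chromosome 9 from 87702800 to 87731260 (minus strand). Its levels were 47.1, 44.3 and 37.5 CPM in CTL and 39.7, 50.1 and 33.5 CPM in Med12cKO replicates 1 to 3. Med12cKO replicate 2 was the highest and Med12cKO replicate 3 the lowest of the 6 libraries. The log2 difference was −0.06 (SE 0.17, 95% interval −0.44 to 0.31; edgeR adjusted p = 0.9999). The sign turned without CTL replicate 1 (0.0080) or Med12cKO replicate 3 (0.06). Of its exon bases 20.6% are shared with D030062O11Rik on the opposite strand. The 9 epicardial markers summed to 329.9 to 425 CPM in CTL and 232 to 431 CPM in Med12cKO. Of the 9, 0 passed edgeR (0.022% of all genes did) or DESeq2 (0.477% of all genes did). At an unadjusted edgeR p under 0.05 there were also 0, against 3.78% of all genes. The 10 pericyte and smooth muscle markers summed to 1472 to 2039.7 CPM in CTL and 1928 to 2856 CPM in Med12cKO. The sum was highest in Med12cKO replicate 2, a library with lung transcripts, where Tbx18 was also highest. Med12cKO replicate 3, with the lowest Tbx18, had a sum above those of CTL replicates 2 and 3. Acta2 alone held 752 CPM of that sum in Med12cKO replicate 3, and 365 and 289 CPM in CTL replicates 2 and 3. Rgs5, Myh11 and Notch3 were, like Tbx18, highest in Med12cKO replicate 2 and lowest in Med12cKO replicate 3, and the other markers of this list were not. Of the 10 markers 0 passed edgeR or DESeq2, against 0.022% and 0.477% of all genes. At an unadjusted edgeR p under 0.05 the smooth muscle genes Acta2 (487 and 969 CPM on average in CTL and Med12cKO) and Tagln (110.1 and 175 CPM) were higher. The pericyte gene Kcnj8 (38.8 and 31.2 CPM) was lower. Among all genes tested 2.16% were higher and 1.61% lower at that level. Of the exon bases of Tagln 67.9% are shared with genes on the opposite strand. DESeq2 called Acta2 higher in the 4 libraries with letter I. For this and every later DESeq2 call in a set of 4 libraries, the share of all genes called is not given. The part of pericytes, smooth muscle cells or lung tissue in the level of Tbx18 was not tested.

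Tbx1, the factor lost in 22q11 deletion syndrome, was near the limit of detection. It lies on chromosome 16 from 18580979 to 18590671 (minus strand). It had 8, 11 and 7 counts in CTL replicates 1 to 3 and 4, 19 and 11 counts in Med12cKO replicates 1 to 3. The highest and the lowest value were both in Med12cKO. The level was 0.88 ± 0.19 CPM in CTL and 1.17 ± 0.71 CPM in Med12cKO (SD, n = 3 each). With no filter on low counts edgeR put the log2 difference at 0.42, with an SE of 0.56 and an adjusted p of 0.9995. The log2 ratio of the group means turned negative without Med12cKO replicate 2 (−0.11) and in the 4 libraries with letter I (−0.07), so no direction was measurable at this depth.

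As a group, 0 of the 5 tested T-box factors passed edgeR, where 0.022% of all genes tested did (0.0147% lower and 0.00734% higher), and 0 passed DESeq2, where 0.477% did. At an unadjusted edgeR p under 0.05, 1 of the 5 was lower and 0 were higher, against 1.61% lower and 2.16% higher among all genes. The groups did not overlap in 2 of the 5, both lower, against 8.23% of all genes in either direction (3.64% lower and 4.59% higher). All 5 had a negative log2 fold change, as did 47.8% of all genes tested, and in Tbx2 and Tbx18 that sign turned under the settings named above. The tested factors were members chosen with earlier results known, so these counts are a description. The plot of intervals shows that Tbx5 alone had a 95% interval, unadjusted for the number of genes, that did not reach 0.

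**Figure D2:**
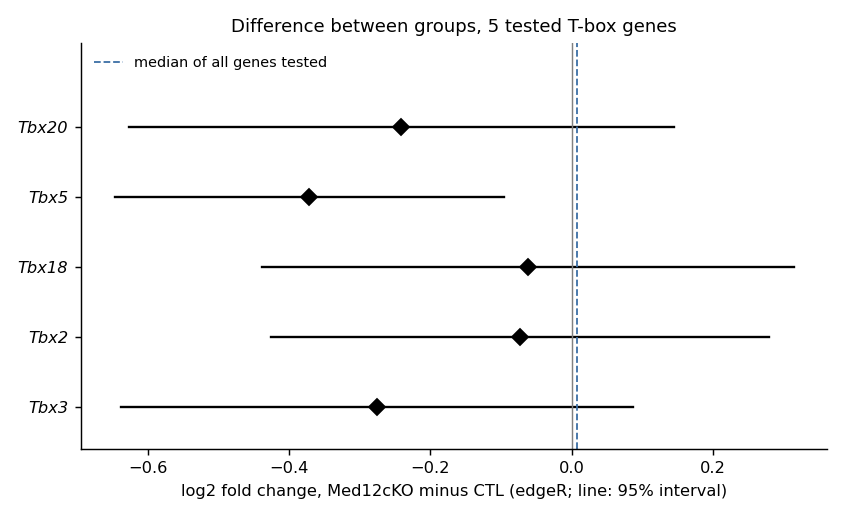
Log2 fold change of Med12cKO minus CTL (x axis) for the 5 tested T-box genes, with diamonds for edgeR's estimate and lines for its 95% interval, not adjusted for the number of genes. The interval of Tbx5 runs from −0.65 to −0.10 and those of the other 4 genes include 0. The dashed line is the median of all 13629 genes tested (0.01).

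The T-box factors expressed in heart muscle were also set against the muscle markers of the same libraries. Of the 11 ventricular cardiomyocyte markers 0 passed edgeR or DESeq2, against 0.022% and 0.477% of all genes. At an unadjusted edgeR p under 0.05, 1 was lower, Myh7 (log2 difference −1.24), against 1.61% of all genes. All 11 had a negative log2 fold change (median −0.26, against 0.01 for all genes tested). DESeq2 called Myh7 lower without both libraries with thymus transcripts and Myh6 lower in the 4 libraries with letter I. When each T-box gene was expressed relative to the mean log2 CPM of these 11 markers, an alternative chosen after seeing the data, the difference of Tbx5 was −0.06 (exact permutation p = 0.60) and that of Tbx20 was 0.06 (p = 0.70, exact), so that Tbx20 changed sign. The groups overlapped in both. On the same scale Tbx3 measured 0.04 (exact permutation p = 0.70) and Tbx18 0.23 (p = 0.40), both with the sign turned. Tbx2 measured 0.23 with every Med12cKO library above every control (exact permutation p = 0.10, the smallest possible). Myh7, at −1.24, had by far the largest difference of the 11 markers in that mean, the next being Tnnt2 at −0.38. The scale was not computed without Myh7, so its part in these turned signs was not tested. In bulk ventricle, fewer cells of a type and less RNA per cell cannot be told apart. The 9 atrial markers summed to 2227 to 2895 CPM in CTL and 1836 to 2055 CPM in Med12cKO with no overlap, and no test compared them with the ventricular list. Myl7, an atrial myosin light chain gene, averaged 1097 CPM in CTL and 512 CPM in Med12cKO. It measured 1240, 1149 and 901 CPM in CTL and 496, 609 and 432 CPM in Med12cKO replicates 1 to 3. The gap between the sums thus leaned on this 1 gene, and a sum without it was not computed. Myl4, another such gene and the most abundant marker of the list over all libraries, averaged 851 and 953 CPM. DESeq2 called 3 of 9 lower (Myl7, Mybphl and Dkk3; 0.477% of all genes were called), while 0 passed edgeR and 5 were lower at an unadjusted edgeR p under 0.05 (1.61% of all genes). DESeq2 called only Myl7 without both libraries with thymus transcripts (2 adjusted p undefined), and Myl7 and Dkk3 in the 4 libraries with letter I. Tbx5 is itself more abundant in atria than in most of the ventricle, and the part of atrial tissue in its level was not tested.

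**Figure D3:**
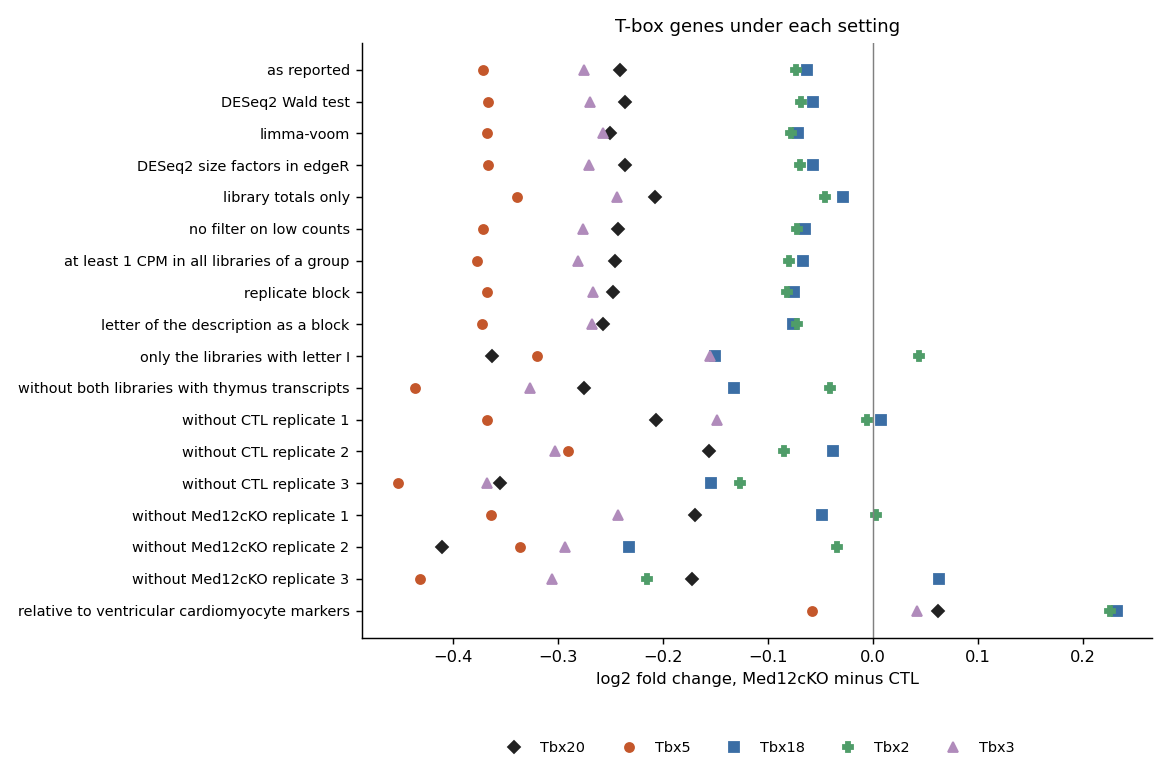
Log2 fold change of Med12cKO minus CTL (x axis) of the 5 tested T-box genes under each setting (rows), from the reported fit at the top to the ratio to ventricular cardiomyocyte markers at the bottom. Tbx5 stays between −0.45 and −0.29 in every setting but the last, where it is −0.06.

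Among the other T-box genes, 11 were in the table and only Tbx6 and Mga passed the filter. Mga, a large factor that combines a T-box with a MAX-binding domain, measured 71.4 ± 1.76 CPM in CTL and 74.6 ± 18.4 CPM in Med12cKO (SD, n = 3 each; log2 fold change 0.06, SE 0.17). Tbx6, a mesoderm factor, measured 3.33 ± 0.70 and 2.88 ± 0.61 CPM (log2 difference −0.22, SE 0.30), and neither passed (edgeR adjusted p = 0.9999 in both). Tbx22 and the antisense transcript Tbx3os2 had 0 counts in every library. Tbx4 and Tbx19 were low in all libraries, and their highest counts lay in libraries with transcripts of other tissues. They were singled out after their values were seen. Tbx4, which lies 44.5 kilobases from Tbx2 and is known from lung mesenchyme and hindlimb, had 11 counts in CTL replicate 1 and 7 in Med12cKO replicate 2, where lung markers were present. It had 1 to 3 counts in the other 4. The surfactant gene Sftpc, which defines alveolar type II cells, had 314 and 92 counts in those 2 libraries and 0 to 2 in the others. Tbx19, known as a pituitary factor, had 11 counts in CTL replicate 3, 7 in Med12cKO replicate 1 and 0 in the other 4. Those 2 libraries are the ones that held thymus markers. The source of the Tbx4 and Tbx19 reads was not tested.

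**Figure D4:**
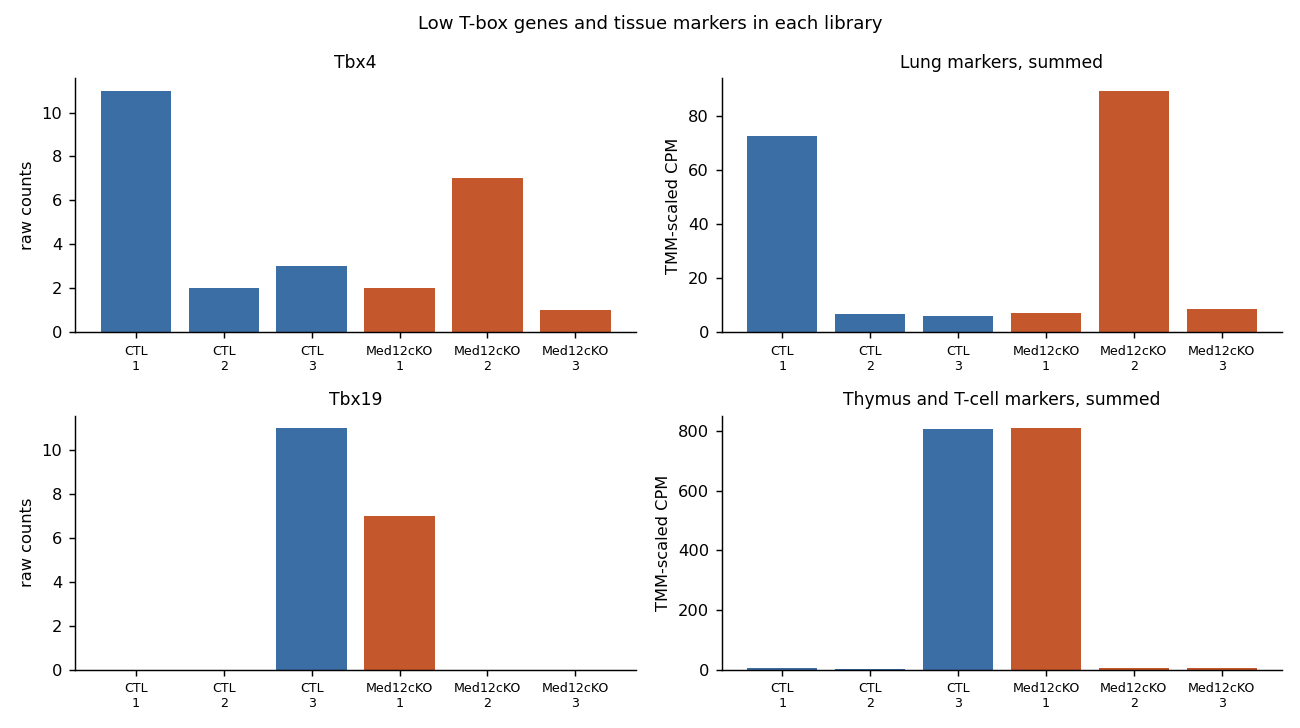
Bars give raw counts of Tbx4 and Tbx19 (left) and summed TMM-scaled CPM of lung markers and of thymus and T-cell markers (right) in each of the 6 libraries, blue for CTL and orange for Med12cKO. Tbx4 and the lung markers are highest in CTL replicate 1 and Med12cKO replicate 2, and Tbx19 and the thymus markers in CTL replicate 3 and Med12cKO replicate 1.

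Partners of the T-box factors, which include the GATA, NKX2-5 and HAND factors, TLE corepressors and chromatin proteins, gave no call. All 22 were tested, and 0 passed edgeR (0.022% of all genes did) or DESeq2 (0.477% of all genes did). DESeq2 gave no adjusted p for Msx2 and Isl1. At an unadjusted edgeR p under 0.05, 1 was higher and 1 lower (3.78% of all genes reached that level). The median log2 fold change was 0.05, against 0.01 for all genes. Gata6, a partner of Tbx5 in chamber gene activation, measured 304, 279 and 265 CPM in CTL and 189.6, 212 and 233 CPM in Med12cKO replicates 1 to 3. Its groups did not overlap. The difference was −0.42 on the log2 scale, with an SE of 0.13 and an edgeR adjusted p of 0.729. Hand1, a left ventricular basic helix-loop-helix factor, measured 3.40 ± 0.35 CPM in CTL and 5.87 ± 1.18 CPM in Med12cKO (log2 difference 0.79, SE 0.25; edgeR adjusted p = 0.850). Nkx2-5 measured 79.8 ± 3.52 and 89.3 ± 37.6 CPM, and the Med12cKO spread came from replicate 3 at 133 CPM. Gata4 measured 278 ± 20.5 and 269 ± 25.2 CPM, and its groups overlapped.

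Signals and regulators upstream of the T-box genes included 2 genes that were lower by DESeq2. Of 24 genes 21 were tested, 0 passed edgeR, and DESeq2 called 2 lower and 0 higher (0.477% of all genes were called). They were Hey2 and Bmp2. At an unadjusted edgeR p under 0.05 the same 2 were lower (1.61% of all genes) and 0 were higher. Bmp2, a ligand that induces Tbx2 and Tbx3 in the atrioventricular canal, measured 11.3, 10.8 and 10.1 CPM in CTL and 5.41, 4.24 and 3.77 CPM in Med12cKO replicates 1 to 3. The groups were well separated. Their log2 difference was −1.26 with an SE of 0.21, for which edgeR gave an adjusted p of 0.129 and DESeq2 one of 0.0056. Hey2, a Notch-induced repressor of the compact ventricular wall that limits Tbx2 and Bmp2 to the canal, measured 137 ± 18.7 CPM in CTL and 66.8 ± 10.6 CPM in Med12cKO (edgeR adjusted p = 0.111, DESeq2 adjusted p = 6.0e-07). Tbx2 and Tbx3, downstream of Bmp2 in the canal, differed by −0.07 and −0.28 in the same libraries, and neither passed edgeR or DESeq2. Bmp4 measured 13.2 ± 2.75 and 14.6 ± 2.18 CPM and did not pass. Without both libraries with thymus transcripts, or in the 4 libraries with letter I, DESeq2 called only Hey2 of this list, with the adjusted p undefined for 6 and 3 of its genes.

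Genes of the working chamber muscle that T-box factors are known to control had a median log2 fold change of −0.29, against 0.01 for all genes tested. The median was −0.26 for the ventricular cardiomyocyte markers and −0.44 for the atrial markers. These lists share genes: Myh6 is also a ventricular marker, and Kcnj3 and Kcna5 are also atrial markers. All 16 targets were tested and 0 passed edgeR. DESeq2 called 5 lower, namely Gja5, Gja1, Ryr2, Pln and Atp2a2, and 1 higher, Nppb (0.477% of all genes were called). At an unadjusted edgeR p under 0.05 the numbers were also 5 lower and 1 higher, against 1.61% and 2.16% of all genes. Gja5, the connexin 40 gene that Tbx5 activates and Tbx2 and Tbx3 repress, measured 171, 212 and 174 CPM in CTL and 81.2, 99.9 and 98.7 CPM in Med12cKO replicates 1 to 3 (log2 difference −0.99, SE 0.14; edgeR adjusted p = 0.092, DESeq2 adjusted p = 6.2e-08). The groups lay far apart. Of the 16 targets, 5 were lower without overlap between the groups and 2 were higher, against 3.64% and 4.59% of all genes tested. Nppa, Cited1, Id2 and Nppb, described next, were not among the lower ones. Nppa, the atrial natriuretic peptide gene, measured 2039, 2283 and 1579 CPM in CTL and 1787, 1677 and 3213 CPM in Med12cKO replicates 1 to 3, with overlapping groups (log2 difference 0.18, SE 0.27; edgeR adjusted p = 0.9999), and 61.5% of its exon bases are shared with a gene on the opposite strand. Cited1, which Tbx2 represses, measured 68.2 ± 4.34 and 93.8 ± 32.1 CPM (log2 difference 0.46, SE 0.21; edgeR adjusted p = 0.9999). Id2, activated by Tbx5 in the conduction system, measured 64.6 ± 12.2 and 64.4 ± 4.19 CPM. Nppb, the B-type peptide gene, measured 38.7 ± 14.3 and 83.1 ± 26.8 CPM, with every Med12cKO library above every control (DESeq2 adjusted p = 0.024, edgeR adjusted p = 0.758). Without both libraries with thymus transcripts DESeq2 called Gja5 alone (2 adjusted p undefined), and in the 4 libraries with letter I it called 6 lower and 1 higher. EdgeR called 0 of the 16 in both sets. The share of all genes that DESeq2 called in either set is not given, so these counts have no background beside them.

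**Figure D5:**
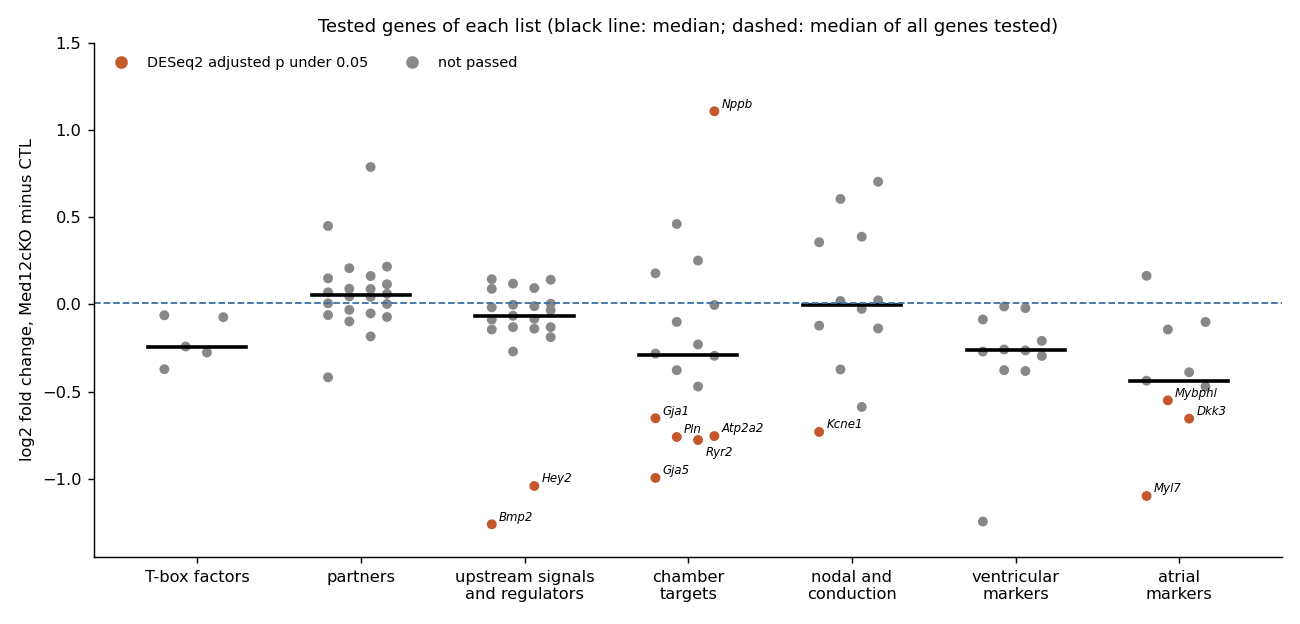
EdgeR log2 fold change of Med12cKO minus CTL (y axis) for the tested genes of the T-box factors, their partners, upstream signals, targets and muscle markers, with 1 point per gene, a black line at each list's median and a dashed line at the median of all genes tested (0.01). Orange points are genes with a DESeq2 adjusted p under 0.05, none of which is a T-box factor or a partner.

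The promoter windows of Tbx20, Gja5 and Nppa are shown because they belong to the most abundant T-box factor, to the target with the lowest edgeR p and to a target whose groups overlapped. Each runs from 250 bases before to 50 bases after the RefSeq start (GRCm38.p6), 5′ to 3′ on the gene's strand. Tbx20 is chr9:24774254-24774553 (minus), Gja5 chr3:97032152-97032451 (plus) and Nppa chr4:148000472-148000771 (plus). Capitals mark the T-box half-site GGTGTGA or its reverse complement TCACACC, or, where that is lacking, the core GGTGT or ACACC that it contains.
Tbx20: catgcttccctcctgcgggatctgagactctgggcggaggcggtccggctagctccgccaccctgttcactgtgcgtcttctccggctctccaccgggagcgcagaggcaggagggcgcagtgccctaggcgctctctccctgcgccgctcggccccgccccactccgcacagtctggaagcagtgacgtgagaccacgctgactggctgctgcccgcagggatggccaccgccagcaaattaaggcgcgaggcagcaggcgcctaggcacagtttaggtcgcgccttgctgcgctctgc
Gja5: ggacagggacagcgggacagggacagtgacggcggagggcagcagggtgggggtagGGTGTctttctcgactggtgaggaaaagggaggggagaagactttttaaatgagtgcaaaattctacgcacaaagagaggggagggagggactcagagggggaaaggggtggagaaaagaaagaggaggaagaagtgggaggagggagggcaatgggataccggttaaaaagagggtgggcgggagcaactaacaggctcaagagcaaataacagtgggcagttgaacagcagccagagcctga
Nppa: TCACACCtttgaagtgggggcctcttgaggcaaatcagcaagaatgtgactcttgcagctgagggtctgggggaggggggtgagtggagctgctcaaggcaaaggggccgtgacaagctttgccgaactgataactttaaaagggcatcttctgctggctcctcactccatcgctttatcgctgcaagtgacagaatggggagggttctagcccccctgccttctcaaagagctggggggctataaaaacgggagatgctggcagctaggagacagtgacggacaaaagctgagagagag
The window of Tbx20 holds neither. That of Gja5 holds 1 core, and that of Nppa holds 1 half-site at its first base, 250 bases before the start. Of the 4 RefSeq windows of Tbx1, Tbx18 and Tbx20, 2 held the core (1 of Tbx1 and that of Tbx18) and 0 the half-site. Of the 18 windows of 14 chamber targets, 9 held the core and 1, that of Nppa, the half-site. The core occurs in 41.6% and the half-site in 3.98% of all 32851 windows of this length. A match describes letters only, and no binding was measured.

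Nodal and conduction genes, where Tbx3 and Tbx18 are known to act, had estimates on both sides of 0. All 12 were tested, 0 passed edgeR, and DESeq2 called 1 lower (0.477% of all genes were called). That gene, Kcne1, encodes a subunit of the slow potassium channel and measured 171 ± 41.6 CPM in CTL and 103 ± 8.0047 CPM in Med12cKO (DESeq2 adjusted p = 0.024, edgeR adjusted p = 0.435). At an unadjusted edgeR p under 0.05, 2 were higher and 2 lower, against 2.16% and 1.61% of all genes. Cacna1d, a pacemaker calcium channel gene, measured 33.8 ± 4.62 CPM in CTL and 51.4 ± 13.3 CPM in Med12cKO (log2 difference 0.60, SE 0.19; edgeR adjusted p = 0.803). Gjd3, the connexin of slow-conducting nodes, measured 3.43 ± 0.57 and 5.58 ± 1.13 CPM (edgeR adjusted p = 0.9999). In Vsnl1, a calcium sensor gene enriched in the sinus node, the values were 13.998 ± 1.82 and 9.30 ± 1.09 CPM (edgeR adjusted p = 0.826). The pacemaker channel gene Hcn4 measured 15.9 ± 4.52 and 16.1 ± 6.81 CPM with overlapping groups. Without both libraries with thymus transcripts, or in the 4 libraries with letter I, DESeq2 made 0 calls in this list, with the adjusted p undefined for 6 and 4 of the 12.

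Genes whose pattern over the 6 libraries lay closest to each T-box factor were found by the root mean square difference of log2 CPM after centring each gene on its own mean, among 12864 candidates. Tbx5 lay closest to Gramd4 (0.045) and Ift81 (0.058), and Tbx20 to Hsd17b7 (0.042) and the kinase subunit gene Prkaa2 (0.062). For Tbx3 the closest were Pnldc1 (0.038) and the microRNA row Mir126 (0.041). Tbx2 lay closest to Gatad1 (0.022) and Ube2e2 (0.027), and Tbx18 to Ano1 (0.039) and Hs6st2 (0.039). None of the T-box factors was among the nearest genes of another. The number of genes within 0.1 on this log2 scale was 906 for Tbx2, 138 for Tbx18, 75 for Tbx3, 54 for Tbx5 and 47 for Tbx20. The root mean square deviation of these factors from their own means was 0.153, 0.198, 0.187, 0.212 and 0.231, in the same order. Genes that vary little lie near each other on this scale, so a high number need not mean a shared pattern.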

How the data were processed

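Both ventricles of male 1-day-old mice were sequenced in 3 control and 3 Med12cKO libraries. The deposited table gives, per the labels, a whole-number read count for each gene symbol. The submitters' processing notes name TopHat2 2.0.0, featureCounts, edgeR 3.14.0 and GRCm38 (mm10). Annotation, strand setting and filters are not given in the sources used here. Library totals were 8453346 to 10911698 counts.

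Groups and replicate numbers came from the sample titles. The labels do not tie libraries to animals, so p-values reflect only how these samples vary, which may be technical. No library was a duplicate: within-group chi-square values over genes were 15.3 to 31.0 times their degrees of freedom. Genes were tested with edgeR 4.0.16 (R 4.3.3, quasi-likelihood F test, TMM scaling, robust dispersions), over all genes kept by filterByExpr (minimum count 10, minimum total 15), with Benjamini-Hochberg adjustment and a threshold of 0.05. DESeq2 1.42.0 and limma-voom (limma 3.58.1) were alternatives, and the tests were tested on simulated counts. The SE is the log2 fold change over the root of F. Exon lengths, positions and shared exon bases came from GENCODE M21, promoter windows from RefSeq. The genes named were all 6 factors, every other T-box gene past the filter, and up to 4 genes of each list with the lowest unadjusted p; other genes in the text were picked for their known roles after values were seen. The members and lists were chosen with earlier results of these data known. The list of upstream signals and regulators was analysed without 1 of its genes, which is not reported here.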

Additional observations from a re-analysis of the deposited data

How the results depend on the processing

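In the 16 refits 0 T-box factors were called. Tbx5, Tbx3 and Tbx20 kept a negative log2 fold change in all of them, with ranges of −0.45 to −0.29, −0.37 to −0.15 and −0.41 to −0.16, each extreme from leaving out a single library. Leaving out 1 library gave −0.22 to 0.0035 for Tbx2 and −0.23 to 0.063 for Tbx18, whose sign turned without CTL replicate 1 (0.0080). In the libraries with letter I Tbx2 was 0.044. Relative to ventricular cardiomyocyte markers, Tbx2 (0.23), Tbx3 (0.042), Tbx18 (0.23) and Tbx20 (0.062) reversed. The cause was not tested, and this scale was not computed without Myh7, the marker with the largest difference. Over all genes 3 were called, against 65 by DESeq2. In sets of 4 libraries edgeR called 1 with letter I only and 4 without both libraries with thymus transcripts. Leaving out 1 library gave 1 to 3 calls, with 1 without Med12cKO replicate 3. Library totals as the only scaling moved the median of all genes by 0.030.

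The main fit did not pair libraries by number. Deviations of same-numbered libraries from their group means correlated at −0.29, 0.53 and −0.31 for replicates 1 to 3 over 10705 genes. Med12cKO replicate 1 correlated best with CTL replicate 3 (0.75). These values do not settle whether any libraries were paired. With the replicate block 2 genes were called, 0 of them T-box factors, and Tbx5 was −0.37. Tbx1, at 4 to 19 counts, is limited by depth.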
